A study of Mus musculus with 7 samples.

Results

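The genes described here are members of the mouse Cyp2d and Cyp3a cytochrome P450 subfamilies, measured in the liver of old female mice. The members were 8 named genes, Cyp2d9, Cyp2d10, Cyp2d22, Cyp2d26, Cyp3a11, Cyp3a13, Cyp3a16 and Cyp3a25, and a probe set (the group of array probes read together for a transcript) was taken where the array's annotation gave it a single gene symbol and that symbol was on the list. This left 7 genes, 3 of Cyp2d and 4 of Cyp3a, of 8251 named genes, with 8 probe sets of 10833 that carry a single symbol. Cyp2d22, often treated as the mouse counterpart of human CYP2D6, had no such probe set and was not analysed here. The rule for taking probe sets used annotation only, but the 8 genes themselves were chosen with earlier results of these data known.

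Total liver RNA of 7 animals was hybridised to Affymetrix mouse U74Av2 arrays, 1 array per animal. All belonged to a single group, so no comparison between treatments or genotypes was possible. The mice were females aged 24 to 26 months with free access to standard pelleted food, numbered as replicates 1 to 4 and 6 to 8. The labels disagree on genotype: the source field calls the mice phenotypically normal (+/+ or +/df), while the free text calls each an Ames dwarf (df/df), a mutant whose pituitary makes no growth hormone. Igf1, which the liver makes under growth hormone, had a signal of 8919 ± 542 (SD, n = 7) and ranged from 8348 to 9553. The labels name no strain and no pooling of animals.

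Cytochrome P450 enzymes are heme proteins of the endoplasmic reticulum that oxidise steroids, drugs and other fat-soluble compounds with electrons passed on by cytochrome P450 reductase and cytochrome b5. The Cyp3a enzymes are the main inducible drug-oxidising P450s of liver and intestine and are switched on through the xenobiotic receptors Nr1i2 (PXR) and Nr1i3 (CAR). The Cyp2d enzymes are largely constitutive, and in mouse liver the steroid hydroxylase gene Cyp2d9 is known for higher expression in males under the control of growth hormone.

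Both subfamilies form gene clusters of close paralogues, which bears on what a probe set can read. In the RefSeq gene table of mouse, all 7 measured members matched by gene identifier. The Cyp2d cluster on chromosome 15 held 19 loci, 8 protein-coding and 11 pseudogenes, with Cyp2d11, Cyp2d10 and Cyp2d9 in this order as protein-coding neighbours and Cyp2d26 at the far end. The Cyp3a genes on chromosome 5 comprised 13 loci, 9 protein-coding and 4 pseudogenes. In their order Cyp3a13 was number 1, Cyp3a16 number 4, and Cyp3a11 and Cyp3a25 numbers 10 and 11. Cyp3a13 lay apart from the other measured Cyp3a members. The window around its transcription start began at base 137921570, and those of Cyp3a16, Cyp3a11 and Cyp3a25 between 145469674 and 146009569. Of the 10 other Cyp2d and Cyp3a genes listed for comparison, such as Cyp2d11, Cyp3a41a and Cyp3a44, 0 had a probe set with a single symbol.

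The promoters of 2 pairs of members are shown because they were the most alike in sequence, and the signals of the same pairs are set side by side further on. The sequences are the RefSeq windows of GRCm38.p6 from 250 bases before to 50 bases after the transcription start, written 5′ to 3′ on the gene's own strand. Cyp2d9 lies at chr15:82452127-82452426 on the plus strand, Cyp2d10 at chr15:82407145-82407444 on the minus strand, Cyp3a11 at chr5:145879805-145880104 on the minus strand and Cyp3a16 at chr5:145469674-145469973 on the minus strand. Capitals mark matches to the searched motifs: TTCCGGGC, CAAAGTCCA, and a direct repeat of AGGNCA with any 1 base between its copies. They were chosen after the sequences had been read.
Cyp2d9: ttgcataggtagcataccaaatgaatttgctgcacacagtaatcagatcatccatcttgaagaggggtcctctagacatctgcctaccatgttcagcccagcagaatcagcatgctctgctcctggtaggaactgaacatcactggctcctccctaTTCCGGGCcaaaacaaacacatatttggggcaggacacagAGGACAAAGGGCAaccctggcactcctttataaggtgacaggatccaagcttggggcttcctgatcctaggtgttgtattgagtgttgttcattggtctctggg
Cyp2d10: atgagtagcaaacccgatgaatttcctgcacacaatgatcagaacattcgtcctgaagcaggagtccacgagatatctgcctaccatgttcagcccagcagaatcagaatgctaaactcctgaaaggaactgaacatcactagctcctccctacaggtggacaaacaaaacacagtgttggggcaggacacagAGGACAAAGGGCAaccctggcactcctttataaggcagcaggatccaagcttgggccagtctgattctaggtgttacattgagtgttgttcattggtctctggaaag
Cyp3a11: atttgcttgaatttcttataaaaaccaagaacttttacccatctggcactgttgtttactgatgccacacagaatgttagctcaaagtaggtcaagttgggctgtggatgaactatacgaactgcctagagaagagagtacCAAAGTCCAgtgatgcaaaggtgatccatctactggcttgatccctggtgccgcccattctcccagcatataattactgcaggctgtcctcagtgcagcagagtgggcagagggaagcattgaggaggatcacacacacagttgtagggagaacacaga
Cyp3a16: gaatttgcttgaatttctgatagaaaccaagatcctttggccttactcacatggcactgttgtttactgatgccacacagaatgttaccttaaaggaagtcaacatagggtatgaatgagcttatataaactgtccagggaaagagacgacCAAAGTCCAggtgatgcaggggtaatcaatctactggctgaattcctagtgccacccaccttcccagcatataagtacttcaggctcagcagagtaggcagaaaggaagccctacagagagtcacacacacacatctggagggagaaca

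The Cyp2d9 and Cyp2d10 windows were 83.3% identical over 306 aligned columns, and those of Cyp3a11 and Cyp3a16 were 75.2% identical over 315, whereas the other pairs of members lay between 48.7% and 58.1%. The letters TTCCGGGC, a GABP-type element whose CpG is known as the methylation-sensitive element of the Cyp2d9 promoter in mouse, began at -94 in Cyp2d9 and were absent from the windows of the other 6 members. The CpG inside it was the only 1 in the Cyp2d9 window, against 3 CpGs in the Cyp2d10 window and a median of 7 over all 32851 mouse promoters of this length. The direct repeat, of the kind that nuclear receptors of the HNF4A type bind, matched as AGGACAAAGGGCA at -54 in Cyp2d9 and at -57 in Cyp2d10. The HNF4A-type core CAAAGTCCA began at -109 in Cyp3a11 and at -99 in Cyp3a16.

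Searched on both strands, TTCCGGGC was in 1.40% of all promoters, the direct repeat in 0.381% and CAAAGTCCA in 0.475%. The letters TATAA, in 24.9% of all promoters on either strand, were found in all members' windows but that of Cyp3a13. In Cyp2d26, Cyp3a13 and Cyp3a25 none of the 3 marked motifs was found. These matches describe letters in a window and are neither binding sites nor causes.

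**Figure D1:**
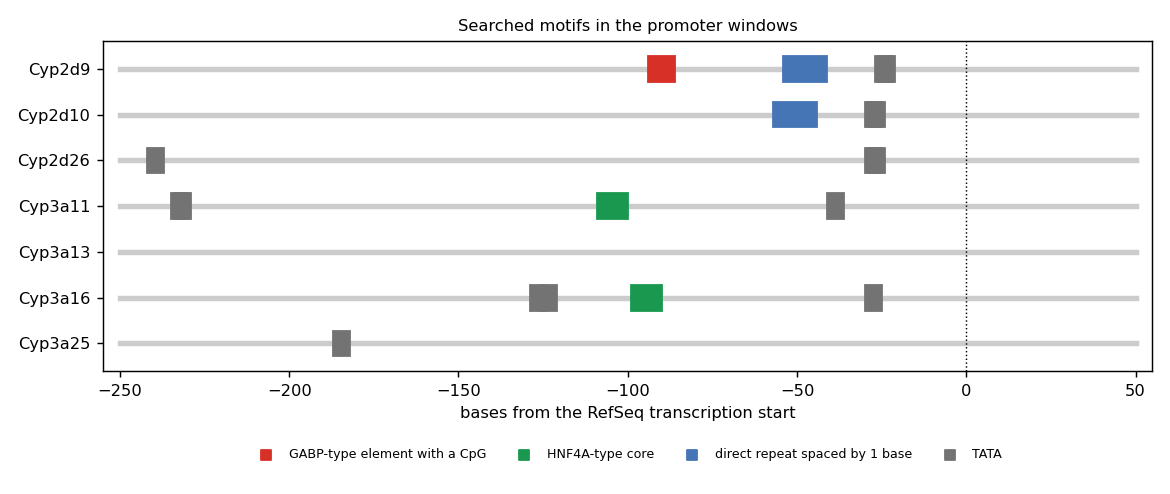
Position of the searched motifs in the promoter windows of the 7 measured members, in bases from the RefSeq transcription start (dotted line). Cyp2d9 and Cyp2d10 share the direct repeat near the start, Cyp3a11 and Cyp3a16 share the HNF4A-type core farther upstream, and only the Cyp2d9 window of these 7 holds the GABP-type element.

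The labelled tissue was checked against cell type markers. All 7 hepatocyte markers reached the minimum mean signal of 200.1 used for tests and their median signal was 23525, with albumin (Alb) at 31853 ± 3080. Kidney and cholangiocyte markers, 4 and 3 on the array, had medians of 43.2 and 23.0, and 0 of them reached that minimum. Of the intestinal epithelium markers, which matter because Cyp3a13 and Cyp3a25 are expressed in gut too, 1 of 5 was tested, the fatty acid binding protein gene Fabp2 at 1244 ± 159, and the median was 33.3. In whole liver, fewer cells of a type and less RNA per cell cannot be told apart. The bacterial spike-in controls, RNAs added in known amounts, split the arrays into a set with lower signals (replicates 6, 7 and 8, mean log2 10.20 to 10.24) and a set with higher signals (replicates 1 to 4, 10.64 to 10.97). The labels do not say what this split is. No 2 of the 7 arrays held identical values.

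All 7 measured members passed the minimum mean signal. Signals of different probe sets are not on one scale, so levels are given for each gene and no order of abundance is drawn between genes.

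Cyp2d9 (NCBI gene 13105), the male-biased testosterone hydroxylase gene, had a signal above the floor of 50.04 on all 7 arrays of these females. That floor is a setting and no detection call, and 27.5% to 29.6% of probe sets other than controls lay below it on an array. The Cyp2d9 signal was 252 on replicate 1, 360.5 on replicate 2, 992 on replicate 3, 368 on replicate 4, 442 on replicate 6, 546 on replicate 7 and 244 on replicate 8. Replicate 3 stood alone at the top, and replicates 1 and 8 were lowest at nearly the same value. The mean was 458 ± 258 and the highest value was 4.07 times the lowest. The SD of its log2 signal was 0.70, against 0.20 expected for genes of its level, and 1.54% of tested genes had a larger SD. Without replicate 3 the SD was 0.45.

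Cyp2d10 (NCBI gene 13101), the neighbour of Cyp2d9, is read by a probe set whose suffix (_s_at) marks a design that can read several similar transcripts. It had 20924 on replicate 1, 17832 on replicate 2, 22616 on replicate 3, 17019 on replicate 4, 19133 on replicate 6, 21976 on replicate 7 and 17884 on replicate 8. Replicates 3, 7 and 1 were high and replicate 4 was lowest, within a 1.33-fold range. The mean was 19626 ± 2215 and the log2 SD was 0.16, against 0.12 expected.

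Cyp2d26 (NCBI gene 76279) was the steadiest member. It had 13336, 12831 and 12350 on replicates 6 to 8, and 14029, 13900.1, 13969 and 13999 on replicates 1 to 4. All 3 arrays of the lower spike-in set lay below the other 4, which were close together. The mean was 13488 ± 671, and the log2 SD of 0.07 was smaller than that of 97.3% of tested genes and below the 0.13 expected. Within the array sets the SD was 0.06 on replicates 6 to 8 and 0.01 on replicates 1 to 4.

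Cyp3a11 (NCBI gene 13112) is the main Cyp3a gene of adult mouse liver, a target of Nr1i2 and often set beside human CYP3A4. It had 12266 on replicate 1, 15054 on replicate 2, 16914 on replicate 3, 13181 on replicate 4, 12492 on replicate 6, 15007 on replicate 7 and 13102 on replicate 8. Replicate 3 was highest, followed by replicates 2 and 7, while the other 4 lay close together. The mean was 14002 ± 1702 and the log2 SD was 0.17, against 0.13 expected.

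Cyp3a13 (NCBI gene 13113), which is also expressed in intestine, had 4213 on replicate 1, 4813 on replicate 2, 4963 on replicate 3, 3433 on replicate 4, 3988 on replicate 6, 4764 on replicate 7 and 4227 on replicate 8. Its 3 highest arrays were those of Cyp3a11, replicates 3, 2 and 7, but here replicate 4 stood lowest. The mean was 4343 ± 543 and the log2 SD was 0.19, against 0.14 expected. Without replicate 4 the SD was 0.13.

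Cyp3a25 (NCBI gene 56388), a constitutive Cyp3a gene of liver and gut, had 5376 on replicate 1, 6401 on replicate 2, 4673 on replicate 3, 4416 on replicate 4, 4495 on replicate 6, 4481 on replicate 7 and 3793 on replicate 8. Replicates 2 and 1 were high, replicate 8 was low and the other 4 lay close together. The mean was 4805 ± 843 and the log2 SD was 0.24, against 0.14 expected. Without replicate 2 the SD was 0.16.

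Cyp3a16 (NCBI gene 13114) is known as the Cyp3a gene of fetal and newborn mouse liver. The suffix of its probe set (_r_at) marks probes that did not meet all of the array's selection rules. It had 396 on replicate 1, 781 on replicate 2, 492 on replicate 3, 668 on replicate 4, 667 on replicate 6, 286 on replicate 7 and 757 on replicate 8. Replicates 7, 1 and 3 were low, and the other 4 lay between 667 and 781. The mean was 578 ± 189 with a 2.73-fold range, and the log2 SD was 0.54, against 0.18 expected. Without replicate 7 the SD was 0.39.

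**Figure D2:**
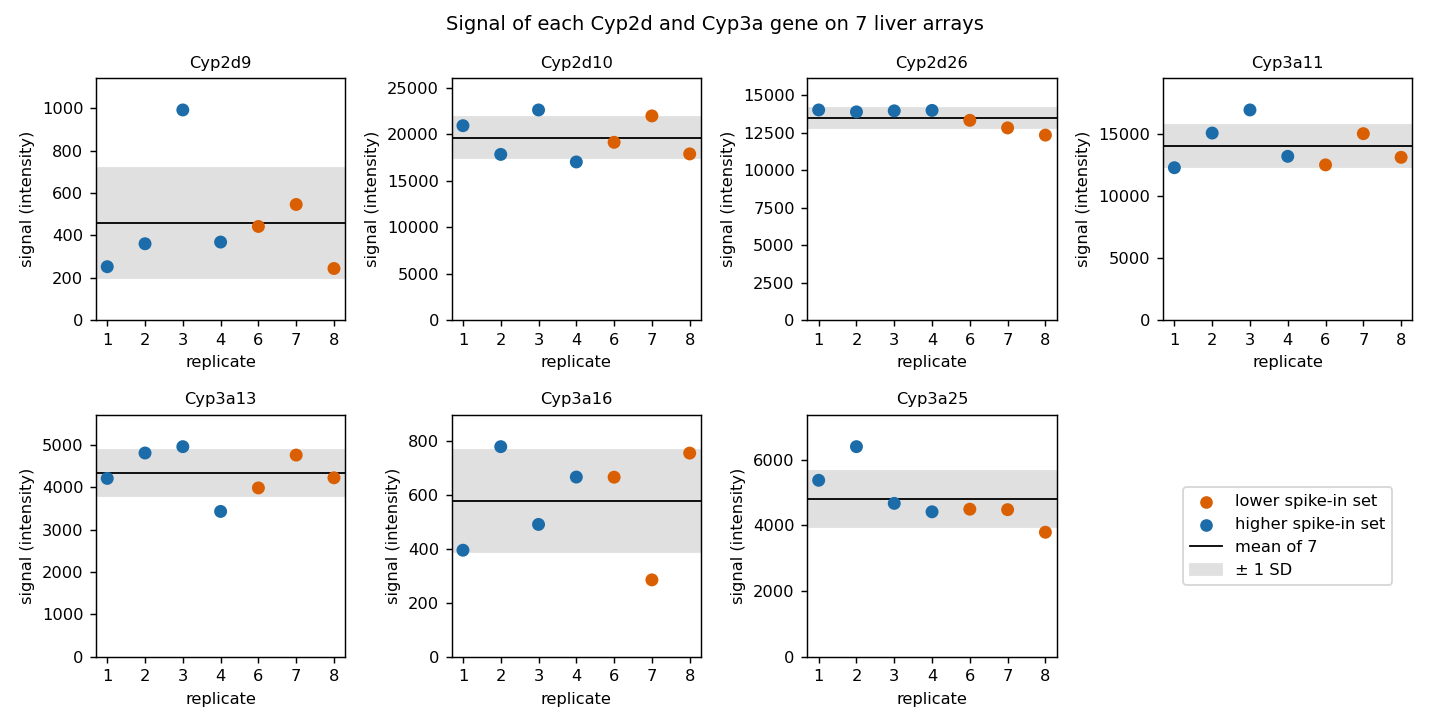
Signal (scaled intensity, each panel from 0) of the 7 measured members on each array, with the mean of 7 (line) and 1 SD on either side (grey). Points are coloured by the spike-in set: Cyp2d9 reaches 992 on replicate 3, Cyp3a25 is highest on replicates 1 and 2, and Cyp2d26 stays between 12350 and 14029.

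Excess variation was tested by setting each gene's variance against the one that limma's fit over all 4481 tested genes expects at that signal. At an adjusted p under 0.05 the count was 0 genes, or 0%, and 0 members. At an unadjusted p under 0.05 it gave 301 genes, or 6.72%, and 2 of the 7 members were among these, Cyp2d9 (limma adjusted p = 0.366) and Cyp3a16 (limma adjusted p = 0.472). The next was Cyp3a25 (limma adjusted p = 0.948), and Cyp2d26 was at the other end (limma adjusted p = 0.995). The SD expected at the signals of Cyp2d9 and Cyp3a16 was 0.20 and 0.18, against 0.12 to 0.14 for the other 5 members.

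The median log2 SD of the 7 members was 0.19, against 0.18 over all tested genes. The SD was above that expected in 6 of 7 members and in 2199 of 4481 tested genes. The members' own arrays differed: replicate 3 was the highest array for 4 members (Cyp2d9, Cyp2d10, Cyp3a11 and Cyp3a13), replicate 2 for 2 and replicate 1 for 1. Replicate 8 was the lowest for 3 members (Cyp2d9, Cyp2d26 and Cyp3a25), and on it 1 of 7 members lay above its own mean log2 signal, against 5 of 7 on replicates 2 and 3.

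**Figure D3:**
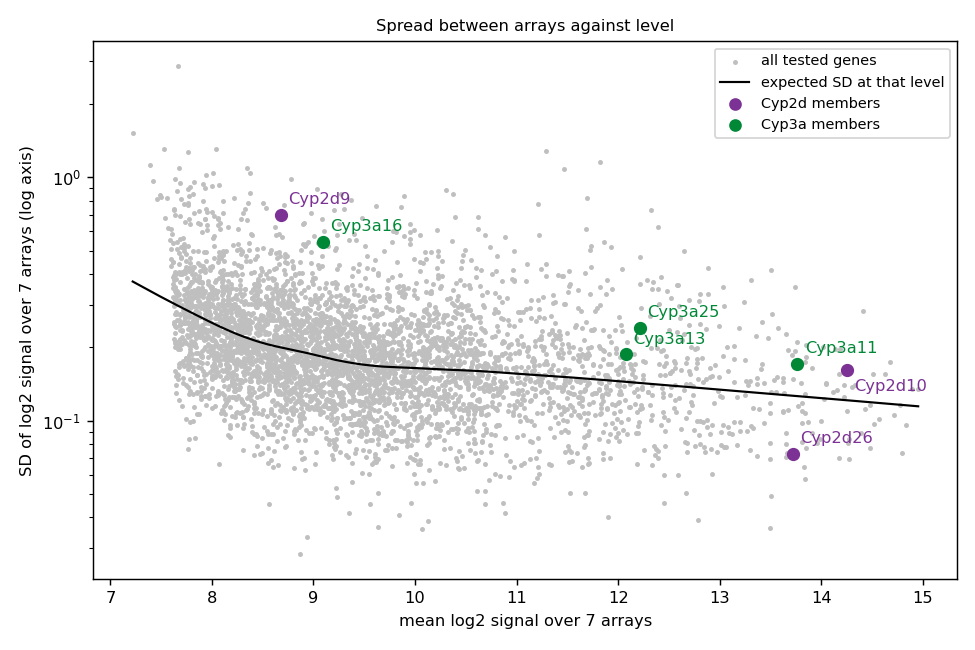
SD of log2 signal over 7 arrays (log axis) against mean log2 signal for all 4481 tested genes (grey), with the SD expected at each level (line) and the 7 measured members. Cyp2d9 and Cyp3a16 lie well above the line and Cyp2d26 below it.

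The difference between the spike-in sets was tested across all genes, as replicates 6 to 8 against replicates 1 to 4. At an adjusted p under 0.05, limma called 0 of 4481 genes (0%), and at an unadjusted p under 0.05 it called 309 (6.9%). Of the 7 members, 0 were in either count. Cyp3a25 averaged 4257 on replicates 6 to 8 and 5216 on replicates 1 to 4, a log2 difference of -0.28 ± 0.13 (SE; limma adjusted p = 0.719). Without replicate 2 the difference was -0.18. Replicates 6 and 7 were above replicate 4, so the 2 sets overlapped. Cyp2d26 averaged 12839 on replicates 6 to 8 and 13974 on replicates 1 to 4, a log2 difference of -0.12 ± 0.06 (SE; limma adjusted p = 0.751), and all 3 arrays of the lower set lay below all 4 of the higher set.

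A further probe set read Cyp2d10, and a pair of probe sets carried more than 1 symbol, so that their signal could not be given to a single gene. The second Cyp2d10 probe set had 8895, 7726, 8610, 7278, 7529, 8318 and 7784 on replicates 1, 2, 3, 4, 6, 7 and 8. Replicates 1, 3 and 7 were high again and replicate 4 again lowest. The 2 probe sets of Cyp2d10 had r = 0.855 across arrays (exact permutation p = 0.0256, adjusted p = 0.733) and rho = 0.786 (exact permutation p = 0.0480, adjusted p = 0.844). Dropping the 2 arrays farthest from the median gave 0.845, and removing set means gave 0.881.

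The probe set annotated to Cyp2d12 and Cyp2d9 (suffix _f_at, for a gene family) did not show the wide spread of the probe set for Cyp2d9 alone. It had 9425, 8964, 9656, 8842, 9338, 9327 and 8488 on replicates 1, 2, 3, 4, 6, 7 and 8, a 1.14-fold range. Replicates 3 and 1 were highest and replicate 8 lowest, so replicate 1 stood high here and low in Cyp2d9. Its r was 0.666 with Cyp2d9 (exact permutation p = 0.0994, adjusted p = 0.945, rho = 0.571 with exact permutation p = 0.2 and adjusted p = 0.995) and 0.547 without the 2 farthest arrays and 0.663 with set means removed. With Cyp2d10, a gene it is not annotated to, its r was 0.837 (exact permutation p = 0.0218, adjusted p = 0.945, rho = 0.786 with exact permutation p = 0.0480 and adjusted p = 0.995), with 0.859 without the 2 farthest arrays and 0.867 with set means removed. The difference between these 2 correlations was not tested. Without replicate 1 the r with Cyp2d9 was 0.938 and with each array centred on its median it was 0.381, while with Cyp2d10 leaving out 1 replicate at a time gave 0.763 to 0.920.

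The probe set annotated to Cyp3a16 and Cyp3a11 (suffix _s_at) had 12791, 16463, 17866, 12657, 9624, 15882 and 11738 on replicates 1, 2, 3, 4, 6, 7 and 8. Replicates 3, 2 and 7 were highest, as for Cyp3a11, and the range was 1.86-fold. Its r with Cyp3a11 was 0.890 (exact permutation p = 0.0109, adjusted p = 0.889, rho = 0.786 with exact permutation p = 0.0480 and adjusted p = 0.914), 0.888 without the 2 farthest arrays and 0.908 with set means removed. That placed Cyp3a11 18th of 4481 tested genes by r. With Cyp3a16, its r was -0.351 (exact permutation p = 0.441, adjusted p = 0.964, rho = -0.179 with exact permutation p = 0.713 and adjusted p = 0.986), -0.275 without the 2 farthest arrays and -0.460 with set means removed.

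**Figure D4:**
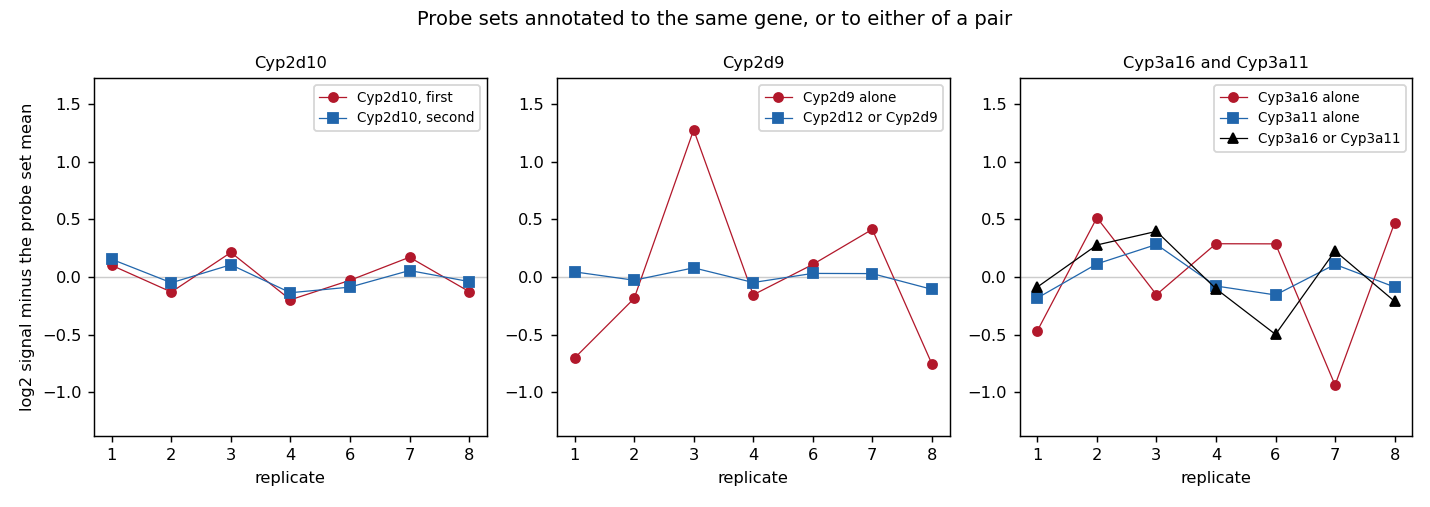
Log2 signal minus the probe set's own mean on each array, for probe sets that carry a member's symbol alone or beside another. The 2 Cyp2d10 probe sets run together, the Cyp2d9 probe set peaks on replicate 3 while the one shared with Cyp2d12 stays nearly flat, and the one shared by Cyp3a16 and Cyp3a11 runs with Cyp3a11.

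Correlation between members was computed over the 7 animals for all 21 pairs, with exact two-sided permutation p over all orders of the 7 arrays, of which the smallest possible is 0.000198, and adjusted over all tested genes. The r was positive in 15 pairs and negative in 6, with a median of 0.139, against a median of 0.00 over all pairs of tested genes, 50.03% of which were above 0. Without replicate 8 the r was positive in 11 of the 21 pairs, and with set means removed in 12. At an unadjusted p under 0.05 there were 3 pairs, and 0 at an adjusted p under 0.05, where the smallest adjusted p was 0.787. The sets of 4 and 3 arrays are too small for an r within each, so r after subtracting each set's mean is given beside it. Cyp2d26 had a log2 SD of 0.01 within replicates 1 to 4 and 0.06 within replicates 6 to 8. Its r with set means removed, here and below, therefore rests mainly on replicates 6 to 8.

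Cyp2d10 and Cyp3a16 had the most negative r of the 21 pairs. The 3 arrays highest in Cyp2d10, replicates 3, 7 and 1, were the 3 lowest in Cyp3a16. The pair had r = -0.817 (exact permutation p = 0.0252, adjusted p = 0.787) and rho = -0.786 (exact permutation p = 0.0480, adjusted p = 0.864), -0.842 and -0.873 without the 2 arrays farthest from the median of either gene, and -0.819 with set means removed.

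Cyp2d9 and Cyp3a11 were both highest on replicate 3. They had r = 0.798 (exact permutation p = 0.0315, adjusted p = 0.878) and rho = 0.571 (exact permutation p = 0.2, adjusted p = 1), with r = 0.541 and 0.640 without the 2 arrays farthest from the median of either gene and 0.802 with set means removed. Without replicate 3 alone the r was 0.524, so it rests in part on that array.

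The 2 Cyp3a genes Cyp3a11 and Cyp3a13 shared their 3 highest arrays. Their r was 0.744 (exact permutation p = 0.0442, adjusted p = 0.911) and rho was 0.75 (exact permutation p = 0.0663, adjusted p = 1). Dropping the 2 farthest arrays gave 0.501 by Cyp3a11 and 0.951 by Cyp3a13, and removing set means gave 0.768.

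The pairs with the most alike promoters did not have the highest r, though no difference between correlations was tested. Cyp2d9 and Cyp2d10 had r = 0.616 (exact permutation p = 0.136, adjusted p = 0.890, rho = 0.571 with exact permutation p = 0.2 and adjusted p = 0.935), which was 0.169 and -0.306 without the 2 farthest arrays of either gene and 0.622 with set means removed. Without replicate 3 alone it was 0.310. Cyp3a11 and Cyp3a16 had r = -0.198 (exact permutation p = 0.663, adjusted p = 0.998, rho = 0.143 with exact permutation p = 0.783 and adjusted p = 1), -0.559 and -0.600 without the 2 farthest arrays of either gene, -0.232 with set means removed and 0.03 without replicate 7. Cyp2d26 and Cyp3a25, whose means were both lower on replicates 6 to 8, had r = 0.668 (exact permutation p = 0.0966, adjusted p = 0.998, rho = 0.5 with exact permutation p = 0.267 and adjusted p = 0.997), 0.299 and 0.768 without the 2 farthest arrays of either gene, and 0.304 with set means removed.

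**Figure D5:**
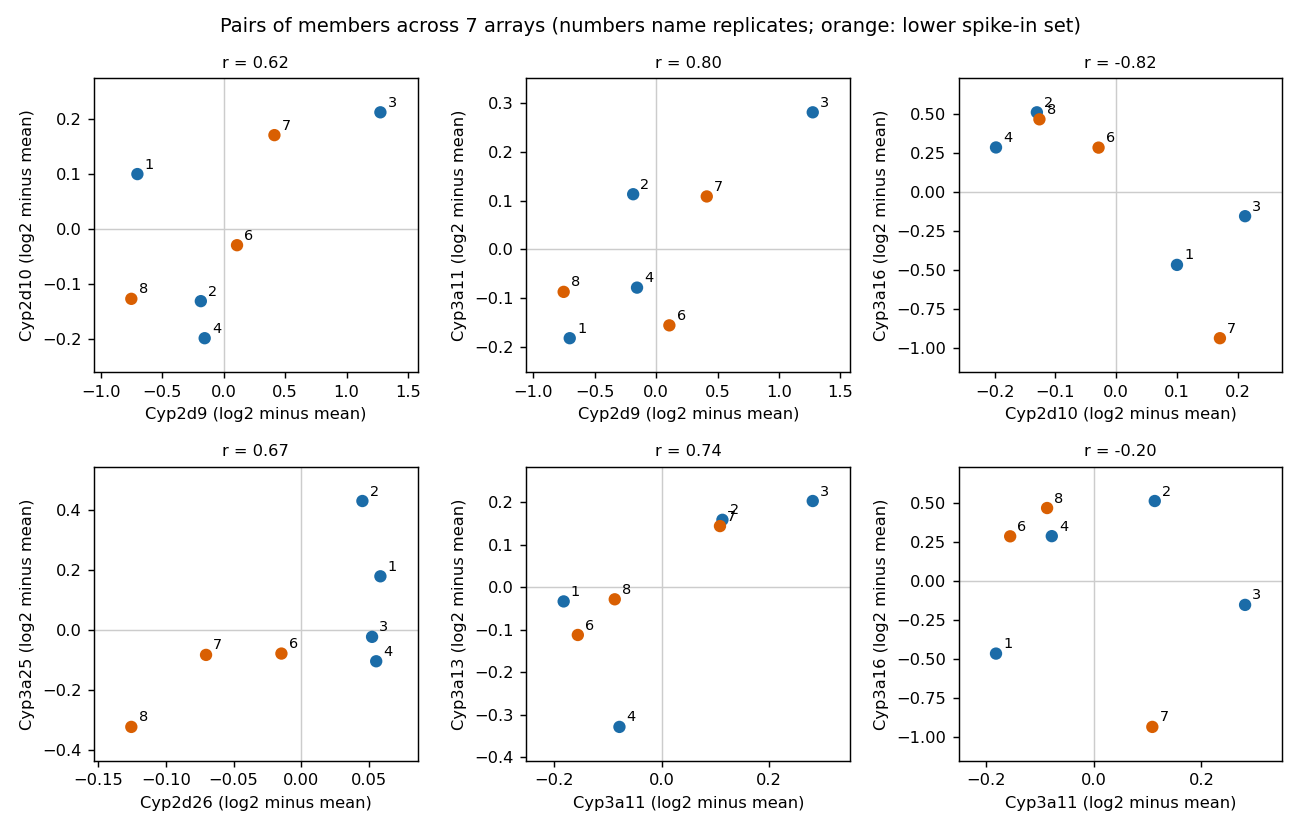
Log2 signal of 6 pairs of members, each minus its own mean, over 7 arrays (numbers are replicates, orange the lower spike-in set, blue the higher). Cyp2d10 against Cyp3a16 slopes down with r = -0.82, Cyp2d9 against Cyp3a11 slopes up with replicate 3 at the far end, and Cyp3a11 against Cyp3a16 has an r that changes sign without replicate 7.

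Each member was then set against all 4480 other tested genes. For each of the 7 members, 0 genes passed at an adjusted p under 0.05, or 0%. At an unadjusted p under 0.05 there were 288 genes (6.43%) for Cyp2d9, 305 (6.81%) for Cyp2d10, 255 (5.69%) for Cyp2d26, 237 (5.29%) for Cyp3a11, 265 (5.92%) for Cyp3a13, 271 (6.05%) for Cyp3a16 and 207 (4.62%) for Cyp3a25. The genes most like each member by Pearson r of log2 signal over the 7 arrays are named as a description. Their r had unadjusted exact permutation p between 0.000198 and 0.0107 and adjusted p between 0.296 and 0.998, and Spearman's rho lay between 0.714 and 1 in size, with exact permutation p between 0.000397 and 0.0881 and adjusted p between 0.444 and 1.

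For Cyp2d9 the 3 highest were Lect2, a protein that hepatocytes secrete (r = 0.959), the recycling endosome GTPase Rab4a (0.956) and Elmod3 (0.955), and the lowest was Atf6, a transcription factor of the unfolded protein response (-0.980). For Cyp2d10 they were the telomere protein gene Tinf2 (0.992), Syngr2 (0.980) and the ubiquitin ligase subunit Fbxo21 (0.979), with the microtubule regulator Ckap5 lowest (-0.952). Fbxo21 and Syngr2 ranked the 7 arrays in the same order as Cyp2d10. For Cyp2d26 they were the fatty acid oxidation enzyme Echs1 (0.951), the guanylate kinase Guk1 (0.934) and the poly(A)-binding protein Pabpn1 (0.933), with the lysosomal protease Lgmn lowest (-0.954). With set means removed the r of these 4 was 0.725, 0.582, 0.714 and -0.734.

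For Cyp3a11 the highest were Hpgd, which breaks down prostaglandins (0.966), Cab39l (0.961) and the phosphatidylcholine enzyme Chpt1 (0.959), with the stress response factor Atf4 lowest (-0.966). Cyp3a13 was most like Gch1, the first enzyme of tetrahydrobiopterin synthesis (0.966), the proteasome subunit Psmc1 (0.958) and the amino acid transporter Slc7a2 (0.949), with Ahcyl1 lowest (-0.978). Cyp3a16 was most like Tmem191c (0.978), Atf6b (0.965) and the mitochondrial import gene Timm8a1 (0.962), with the proteasome subunit Psmb3 lowest (-0.975). With all probe sets of Atf6b averaged its r was 0.522. Cyp3a25 was most like Ankrd46 (0.917), prothrombin (F2, 0.899) and Mtpn (0.890), with Crem lowest (-0.981), and the r of the first 3 were 0.612, 0.436 and 0.331 without the 2 arrays farthest from the median of Cyp3a25.

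The listed genes below were counted by the same rule, an unadjusted p under 0.05 with at least 1 of the 7 members, which 1464 of 4474 tested genes that are no members met, or 32.7%. Beside each count of listed genes with an unadjusted spread p under 0.05, the share over all tested genes was 6.72%. The partners of P450 enzymes were read from a list. Of its 8 genes for electron donors and heme turnover, 7 were on the array and 6 were tested. Cytochrome P450 reductase itself (Por) had no probe set with a single symbol. Cytochrome b5 (Cyb5a) had 12646 ± 1329, the heme synthesis enzyme Alas1 12003 ± 3192, the heme-binding P450 partner Pgrmc1 10550.4 ± 516 and cytochrome b5 reductase (Cyb5r3) 6359 ± 1189. Alas1, which supplies heme to new P450 protein, was the 1 of 6 with an unadjusted spread p under 0.05 (limma adjusted p = 0.4), with 7426 on replicate 2 and 8932 on replicate 4 at the low end and 15492 on replicate 8 at the high end. Its next highest value was 14829 on replicate 3, where Cyp2d9 was highest, while on replicate 8 Cyp2d9, Cyp2d26 and Cyp3a25 were lowest. Of the 6 tested, 5 correlated with at least 1 member at an unadjusted p, in 1 positive and 7 negative gene-member pairs, 0 after adjustment.

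Of 18 receptors and factors that act on these genes, 17 were on the array, 13 were tested and 3 had an unadjusted spread p under 0.05 (Hnf4a, Rxra and Onecut1), 0 of them after adjustment. Cebpa had 11538 ± 640.5, Nr1i3 5597 ± 768, Cebpb 2466 ± 389 and the bile acid receptor Nr1h4 1388 ± 168, while Nr1i2 had 581 ± 101. With at least 1 of the 7 members, 9 of these 13 correlated at an unadjusted p under 0.05, in 5 positive and 9 negative gene-member pairs, and 0 at an adjusted p. Nr1i3, a receptor that senses drugs, had 5428, 4792, 6699, 4953, 6080 and 6319 on replicates 1, 2, 3, 4, 6 and 7, and 4907 on replicate 8. It was highest on replicates 3 and 7, as Cyp2d9 and Cyp2d10 were.

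The r of Nr1i3 was 0.802 with Cyp2d9 (exact permutation p = 0.0204, adjusted p = 0.687, rho = 0.821 with exact permutation p = 0.0341 and adjusted p = 0.797), 0.585 without the 2 farthest arrays and 0.850 with set means removed. It was 0.868 with Cyp2d10 (exact permutation p = 0.0248, adjusted p = 0.686, rho = 0.857 with exact permutation p = 0.0238 and adjusted p = 0.762), 0.620 without the 2 farthest arrays and 0.883 with set means removed. With Cyp3a11, Cyp3a13, Cyp3a16 and Cyp3a25 the r of Nr1i3 was 0.430, 0.426, -0.633 and -0.193. Exact permutation p for these was 0.329, 0.339, 0.125 and 0.674, and adjusted p 0.943, 0.939, 0.903 and 0.998. With Cyp3a11, Nr1h4 had r = -0.885 (exact permutation p = 0.0155, adjusted p = 0.878, rho = -0.75 with exact permutation p = 0.0663 and adjusted p = 1), -0.890 without the 2 farthest arrays and -0.940 with set means removed. The r of Nr1h4 was -0.825 with Cyp3a13 and -0.747 with Cyp2d9 (exact permutation p = 0.025 and 0.0488, adjusted p = 0.804 and 0.770). These were -0.840 and -0.717 without the 2 farthest arrays. Cebpa, a factor that maintains hepatocyte identity, had r = 0.896 with Cyp2d26 (exact permutation p = 0.00774, adjusted p = 0.842, rho = 0.821 with exact permutation p = 0.0341 and adjusted p = 0.796), but 0.370 without the 2 farthest arrays and 0.842 with set means removed. Nr1i2 had r = -0.802 with Cyp3a25 (exact permutation p = 0.0317, adjusted p = 0.998, rho = -0.643 with exact permutation p = 0.139 and adjusted p = 0.997), -0.50 without the 2 farthest arrays and -0.894 with set means removed. Without replicate 2 alone it was -0.487. With Cyp3a11, Cyp3a13 and Cyp3a16 the r of Nr1i2 was -0.311, -0.482 and 0.196 (exact permutation p = 0.499, 0.278 and 0.676, adjusted p = 0.963, 0.938 and 0.998). Not all pairs at an unadjusted p under 0.05 are detailed here. Others included Rxra with Cyp3a13 (r = 0.895, exact permutation p = 0.0105, adjusted p = 0.804) and Nr0b2 with Cyp2d10 (r = -0.841, exact permutation p = 0.00972, adjusted p = 0.628). Without the 2 farthest arrays these were 0.531 and -0.533.

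Other targets of the xenobiotic receptors did not stand out in spread. Of 17 listed, 13 were on the array, 11 were tested and 0 had an unadjusted spread p under 0.05, while 2 correlated with at least 1 member at an unadjusted p. The glutathione transferase Gstm1 had 19559 ± 1476, the aldehyde dehydrogenase Aldh1a1 17037 ± 1741, Cyp2b9 7500 ± 505 and the transporter Abcc3 7071 ± 722. Of the other xenobiotic P450 genes, 9 of 21 were tested and 4 had an unadjusted spread p under 0.05, 0 after adjustment, while 2 correlated with at least 1 member at an unadjusted p. Cyp2e1 had 25440 ± 2768, Cyp1a2 13007 ± 2045, Cyp2a12 10076 ± 528 and Cyp2c70 6777 ± 964. Cyp1a2, the P450 of caffeine oxidation, had r = -0.862 with Cyp3a16 (exact permutation p = 0.0151, adjusted p = 0.787, rho = -0.786 with exact permutation p = 0.0480 and adjusted p = 0.864), -0.816 without the 2 farthest arrays and -0.948 with set means removed.

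Since Cyp2d9 is biased to males, genes of liver sex bias were read on the same arrays. Of 16 male-biased genes, 8 were on the array, 6 were tested and 0 had an unadjusted spread p under 0.05. Serpina1e had 28078 ± 2259, Mup3 24288 ± 1700, Mup5 18513 ± 1969 and Gstp1 6984 ± 958, and the probe sets of Mup and Serpina1 genes can read several members of their families. Of the 6 tested male-biased genes, 0 had an unadjusted p under 0.05 for correlation with Cyp2d9 and 5 had one with at least 1 other member, in 2 positive and 3 negative gene-member pairs. The largest r in size was that of Cyp7b1 with Cyp3a16, at -0.946 (exact permutation p = 0.00119, adjusted p = 0.667). Its rho was -0.929 (exact permutation p = 0.00675, adjusted p = 0.788). The r was -0.764 without the 2 farthest arrays and -0.967 with set means removed. Of 15 female-biased genes, 6 were on the array, 5 were tested and 4 had an unadjusted spread p under 0.05, 0 after adjustment. Cyp2c39 and Cyp2b13 were among these 4 and were also counted above with the other xenobiotic P450 genes. Cyp2b9 had 7500 ± 505, Cyp2c39 3704 ± 3185, Cyp17a1 2622 ± 1011 and Cyp2b13 2511 ± 778. Of these 5, 2 had an unadjusted p under 0.05 with at least 1 member and 0 with Cyp2d9, although Cyp17a1 was lowest on replicate 3, at 767, where Cyp2d9 was highest.

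Many P450 genes, these subfamilies among them, are most active in the pericentral zone of the liver lobule, so zone markers were read as well. All 7 pericentral markers were tested and 0 had an unadjusted spread p under 0.05. At an unadjusted p under 0.05, 2 of them correlated positively with Cyp2d9 (Lect2 and the ornithine enzyme Oat), the same 2 with Cyp3a11, 1 positively with Cyp2d10 and 1 negatively with Cyp3a16 (Cyp1a2 in both). Lect2 is also the gene named above for the highest r with Cyp2d9. The r of Oat with Cyp2d9 was 0.814, but 0.430 without the 2 farthest arrays, and rho was 0.607. With Cyp3a11 the r of Oat was 0.804, and 0.856 without the 2 farthest arrays. The markers not counted with Cyp3a11 differed in direction. Cyp2e1, Cyp1a2 and Rnase4 had r = 0.581, 0.561 and 0.519 with it, while Glul and Slc1a2 had -0.225 and -0.345. Of 7 periportal markers, 5 were tested, 0 had an unadjusted spread p under 0.05 and 1 correlated negatively with a member, the histidine enzyme gene Hal with Cyp3a16. None of these passed after adjustment.

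Inflammation lowers many P450 transcripts, so acute phase genes were read beside them. Of 15 listed, 14 were on the array and tested, and 5 had an unadjusted spread p under 0.05, 0 after adjustment. With at least 1 member, 6 of the 14 correlated at an unadjusted p, in 7 positive gene-member pairs and 1 negative one, 0 after adjustment. Hpx had 18748 ± 2463, Hp 18163 ± 2478, Cp 9076 ± 888 and Itih4 9030 ± 605. Hp, haptoglobin, was high on the arrays where Cyp2d10 was high, with r = 0.847 (exact permutation p = 0.0153, adjusted p = 0.684, rho = 0.857 with exact permutation p = 0.0238 and adjusted p = 0.762), 0.628 without the 2 farthest arrays and 0.862 with set means removed. Of the 7 positive pairs, 2 were with Cyp2d10 and 3 with Cyp3a13. With Cyp3a13, Hp had r = 0.860 and Fgg 0.876 (exact permutation p = 0.0145 and 0.00952, adjusted p = 0.804 for both). Those r were 0.611 and 0.843 without the 2 farthest arrays. The negative pair was Orm2, an orosomucoid gene, with Cyp2d26, at r = -0.823 (exact permutation p = 0.0218, adjusted p = 0.842, rho = -0.857 with exact permutation p = 0.0238 and adjusted p = 0.741), 0.00922 without the 2 farthest arrays and -0.804 with set means removed. Saa2, a serum amyloid gene, had 12083 on replicate 7 and 6261 on replicate 3, against 1165 to 2237 on the other 5 arrays, and on both of these arrays Cyp2d9, Cyp2d10, Cyp3a11 and Cyp3a13 were above their means. Cyp3a16 and Cyp3a25 were below theirs on both, and Cyp2d26 was above on replicate 3 and below on replicate 7. The r of Saa2 with Cyp2d10 was 0.751 (exact permutation p = 0.0468, adjusted p = 0.72), but -0.0198 without the 2 farthest arrays. Acute phase genes differed in their highest array. Lcn2 peaked on replicate 7 at 714 and Hp on replicate 3 at 22218. Saa3 peaked on replicate 1 at 455 and Saa4 on replicate 8 at 1718. The part of inflammation in these signals was not tested.

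Some skeletal muscle genes were high on the arrays where Cyp3a25 was high. The summed signal of the 6 muscle markers was 9253 and 4233 on replicates 1 and 2, the arrays where Cyp3a25 was highest, against 886 to 1138 on the other 5. Of the 6, 4 were higher on both of these arrays than on all others, and the other 2, Ckm and Myh4, were lowest on replicate 1. Acta1, Atp2a1 and Myl1 passed the minimum mean signal only through replicates 1 and 2. No marker was at 0, and the lowest value was 10.5, for Acta1 on replicate 6. For that reason no correlation of these genes with Cyp3a25 is given. The part of other tissue in the Cyp3a25 signal was not tested.

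RNA quality measures were set beside the members too. The 3′ to 5′ signal ratio of the Gapdh control was 0.788 on replicate 7 and 0.804 on replicate 3, its lowest values, and 0.834 to 0.907 elsewhere. At an unadjusted p under 0.05, 301 of 4481 genes (6.72%) and 0 of 7 members correlated with it, and 0 genes did at an adjusted p under 0.05. Its r was -0.734 with Cyp3a11 (exact permutation p = 0.0679, adjusted p = 0.753, rho = -0.679 with exact permutation p = 0.110 and adjusted p = 0.840), -0.350 without the 2 farthest arrays and -0.957 with set means removed. With Cyp3a13 it was -0.699 (exact permutation p = 0.0762, adjusted p = 0.776, rho = -0.714 with exact permutation p = 0.0881 and adjusted p = 0.816), -0.430 without the 2 farthest arrays and -0.772 with set means removed.

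The r of the Gapdh ratio was -0.624 with Cyp2d9 (exact permutation p = 0.130, adjusted p = 0.820, rho = -0.5 with exact permutation p = 0.267 and adjusted p = 0.922) and -0.564 with Cyp2d10 (exact permutation p = 0.186, adjusted p = 0.848, rho = -0.5 with exact permutation p = 0.267 and adjusted p = 0.922). Both turned positive without the 2 farthest arrays, to 0.191 and 0.395, and were -0.743 and -0.610 with set means removed. With the other 3 members it was positive. It was 0.513 with Cyp2d26 (exact permutation p = 0.232, adjusted p = 0.871, rho = 0.679 with exact permutation p = 0.110 and adjusted p = 0.840), 0.875 without the 2 farthest arrays and 0.325 with set means removed. It was 0.409 with Cyp3a16 and 0.323 with Cyp3a25 (exact permutation p = 0.354 and 0.482, adjusted p = 0.914 and 0.952), with rho = 0.179 and 0.214 (exact permutation p = 0.713 and 0.662, adjusted p = 0.993 and 0.984), -0.724 and 0.373 without the 2 farthest arrays, and 0.405 and 0.0773 with set means removed. Replicates 2 and 1 had the lowest beta-actin ratios, 1.31 and 1.34, against 1.56 to 1.78 elsewhere. At an unadjusted p under 0.05 it correlated with 241 genes (5.38%) and 1 of 7 members, Cyp3a25, and with 0 genes at an adjusted p. With Cyp3a25 its r was -0.855 (exact permutation p = 0.0149, adjusted p = 0.877, rho = -0.75 with exact permutation p = 0.0663 and adjusted p = 0.990), -0.217 without the 2 farthest arrays and -0.755 with set means removed. The part of RNA quality in these signals was not tested.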

How the data were processed

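Liver RNA of 7 mice was read on 1-colour arrays. For each probe set on each array the authors deposited a linear intensity, and the program behind it is not given in the sources used here. With 2% of values trimmed from either end, array means ran from 500.36 to 500.39, so the deposited intensities had already been scaled to each other. Gene names are those of the platform annotation, and the members were matched to RefSeq by gene identifier.

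Each array was scaled to a common trimmed mean, values under 0.1 of it (50.04) were set to that floor, and log2 was taken from these deposited intensities. The brightest single-symbol probe set stood for each of 8251 genes, and the 4481 genes whose mean reached 0.4 of that trimmed mean (200.1) were tested. Spread and set differences were fitted with limma 3.58.1 in R 4.3.3 (trended, robust prior, 5.61 prior degrees of freedom), and correlations with Python 3.11.15, numpy 2.4.6 and scipy 1.17.1 by exact permutation of 7 arrays. Benjamini-Hochberg adjustment ran over all tested genes. Scripts were tested on simulated data. The number of arrays limits the precision, and whether the animals differ by litter or cage is not stated, so p-values measure only the spread between these samples.

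The members and lists were chosen with earlier results of these data known. Named were all members and their probe sets, the 4 genes of highest mean signal of each list with any gene a result turned on, and for each member the 3 genes of highest and the 1 of lowest r. Dimmer male-biased genes and some further acute phase genes were named as well. The spike-in split, at the widest gap of 9 control probe sets, is a technical one read from the data. Alternatives were other scalings, floors, filters and priors, all probe sets averaged, the array set as a term and each replicate left out.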

Additional observations from a re-analysis of the deposited data

Results flagged for a closer look

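The signal of Cyp2d9 on replicate 3 was 992, far from the other 6 animals, of which the highest had 546 and the lowest 244. It was singled out because its gap to the nearest other sample, divided by the whole range, was above Dixon's 95% critical value for 7 samples. Of 40 sets of 7 values tested this way, 1 was singled out, and chance does so in about 1 in 20 sets. On the log2 scale, 0 of 10 member probe sets met the rule, Cyp2d9 included. The probe set annotated to both Cyp2d12 and Cyp2d9 was also highest on replicate 3, at 9656, but next came replicate 1 at 9425.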

How the results depend on the processing

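Of 90 results, 68 were correlations or their counts. Of their 1210 alternative values 1207 kept direction and side of the threshold or, for counts, stayed within a fixed ratio. But with 7 arrays 18 genes, and with 6 arrays 125, would have to sit at the smallest permutation p before any could pass after adjustment. The side of the threshold therefore says little about stability there. Of the 428 other alternative values, 417 were kept by the same rule, which for counts let 206 genes stand for 301. SDs are always positive and the smallest limma adjusted p of a member in any setting was 0.324, so every SD counted as kept. That of Cyp2d9 did so although it fell from 0.70 to 0.45 without replicate 3. Acta1, no member, passed the adjusted spread test when the floor was replaced by an offset and without replicate 4 or 6, so that the count of genes, 0 as reported, was 1 with the offset and ranged from 0 to 1 over the left-out replicates. Without the filter on dim genes, the spread test gave 902 genes at an unadjusted p in place of 301 and 0 members in place of 2, and the cause was not tested. The count of 2 members held with each replicate left out. The test between array sets gave 2 genes without the filter (Rdh13 and Olfr138) and 1 member at an unadjusted p, Cyp2d26, in place of 0. Leaving out replicates gave 0 to 1 such members (Cyp3a25 without replicate 3 or 4). Without replicate 7 the r of Cyp3a11 with Cyp3a16 was 0.0256 and that of Cyp3a16 with the Gapdh ratio was -0.142, and these ranged from -0.460 to 0.0256 and from -0.142 to 0.761 over the left-out replicates. The r of Cyp2d26 with the probe set shared by Cyp2d12 and Cyp2d9 was 0.488, but -0.158 without replicate 8, with a range of -0.158 to 0.672. With quantile normalization the r of Cyp2d26 with Cyp3a25 was 0.268 and the difference of Cyp2d26 between array sets -0.04. No paired analysis was possible because there was only 1 group.

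With 7 animals of 1 group, a single correlation could not pass after adjustment however strong it was, and a correlation that missed the threshold is not shown to be absent. Signal over background limits Cyp2d9 and Cyp3a16, whose lowest values were 244 and 286 against a floor of 50.04. Probe sets can read close paralogues, and probe sequences were not analysed here.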
